A study of Mus musculus with 10 samples.

Results

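The 57 genes described here encode the enzymes of phase II conjugation. They were chosen by symbol from the 18398 genes of the table, as every gene whose symbol starts with Gst and 1 of the class letters a, m, p, t, o, k or z, or with Mgst, Ugt or Sult, followed by a digit. They comprise 22 soluble glutathione transferases, 3 microsomal glutathione transferases, 21 UDP-glycosyltransferases (UGTs) and 11 sulfotransferases. RNA of colon tissue from mice of genotype WT was sequenced, with 5 libraries from mice given a normal diet and 5 from mice given a diet called pro-inflammatory, and the comparison asks how the RNA profile of the colon differs between the diets. The strain, age and sex of the mice and the composition of the diet were not given in the sources used here. The labels do not say that each library came from a separate animal, so the p-values measure only the spread between these libraries, which may be technical in part.

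Phase II enzymes attach a water-soluble group to drugs, dietary compounds, hormones and lipid peroxidation products, which can then be exported from the cell. Glutathione transferases add glutathione to electrophiles, most UGTs add glucuronic acid from UDP-glucuronate, and sulfotransferases add sulfate from PAPS, the activated sulfate donor. In the gut these enzymes are most abundant in the absorptive epithelium, and the transcription factors NRF2, AHR and PXR are known to control many of them.

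Expression is given in FPKM, sequenced fragments normalised for gene length and library size, as the authors deposited it. Each library held 15652783 to 18341956 reads on genes, recovered from the steps of the FPKM values. Pearson correlations between libraries ran from 0.911 to 0.992, on log2(FPKM + 1) across the 12345 genes with a mean of at least 1 FPKM. The epithelial markers, at 6925 to 9565 FPKM summed over 12 genes, and the smooth muscle markers, at 2387 to 4055 over 10, were present in all 10 libraries. Pro-inflammatory diet libraries 2 and 5 stood apart. The distal colon list (Hoxb13, Hoxa13, Hoxd13, Hoxd12 and Insl5, 5 of 6 genes measured) summed to 6.45 and 43.8 FPKM there, against 306 to 446 in the normal diet libraries and 396 to 465 in pro-inflammatory diet libraries 1, 3 and 4, with Hoxd12 at 0 and Hoxd13 at 0.0222 in library 2. The small intestine list of 8 genes, led by Fabp6 and Fabp2, summed to 828 and 643 FPKM in these 2 libraries and to 476 in normal diet library 4, against 68.8 to 175 in the other 7. The sum in libraries 2 and 5 was carried by these 2 genes, and Alpi was also highest there, at 19.6 and 25.4 FPKM against 0.284 to 2.79 elsewhere. The list did not move as one: Rbp2 was lowest in both, at 6.12 and 6.73 FPKM against 20.1 to 44.6, and Lct, Apoa4 and Defa24 were at 0.0555 and 0.0407, 0.274 and 0.0755 and 0 and 2.85 FPKM. Lct, Apoa4, Defa24 and Sis were instead highest in normal diet library 4, at 1.47, 3.2, 117 and 17.6 FPKM, where Defa24 reached at most 2.85 elsewhere. Normal diet libraries 1, 2 and 3 stood apart in circadian clock genes, with Dbp at 1.79, 3.29 and 6.69 FPKM against 12.4 to 54.3 in the other 7 libraries, and Npas2 at 13.1, 11.4 and 10.3 against 2.46 to 6.87.

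Of the 57 conjugation genes, 34 had a mean of at least 1 FPKM over the 10 libraries and were tested with limma, together with all 12345 genes that passed this filter. The other 23 lay under it. Summed over all 57, the members took 1621 to 2007 FPKM per library. No member passed the adjusted threshold: 0 were higher and 0 lower at an adjusted p under 0.05 (limma, Benjamini-Hochberg), as were 0% of all genes tested in either direction, and limma voom on the recovered reads also called 0. The smallest adjusted p over the members was 0.151. At an unadjusted p under 0.05, 7 of 34 members (20.6%) were higher on the pro-inflammatory diet, where 8.16% of all tested genes were, and 0 were lower, where 9.25% of all tested genes were. The 7 were Gstp1, Mgst3, Gsto1, Ugt1a7c, Mgst1, Ugt2b5 and Gstz1, and voom gave 6 higher (17.6%, against 7.61% of all genes in that fit). Ugt2b5, with means of 0.434 and 9.37 FPKM, passed the filter only through the pro-inflammatory diet. With the filter at 5 FPKM, which leaves it out, 6 of 30 members (20%) were higher, against 9.96% of all genes. Without normal diet libraries 1, 2 and 3, 2 members were (5.88%, against 1.81%), and the log2 fold changes of Gstp1, Gsto1 and Mgst3 were 0.25, 0.20 and 0.23 (unadjusted p = 0.0239, 0.101 and 0.0311 in limma). In 3 members (8.82%) all 5 values on the pro-inflammatory diet lay above all 5 on the normal diet, against 1.77% of all tested genes, and in 0 they lay below, against 2.07%. Log2 fold changes, on the scale of log2(FPKM + 1) and as pro-inflammatory minus normal diet, were above 0 for 25 members (73.5%, against 47.1% of all tested genes), with a median of 0.15 over the members and -0.013 over all tested genes. On this scale the change of genes near or below 1 FPKM is understated.

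**Figure D1:**
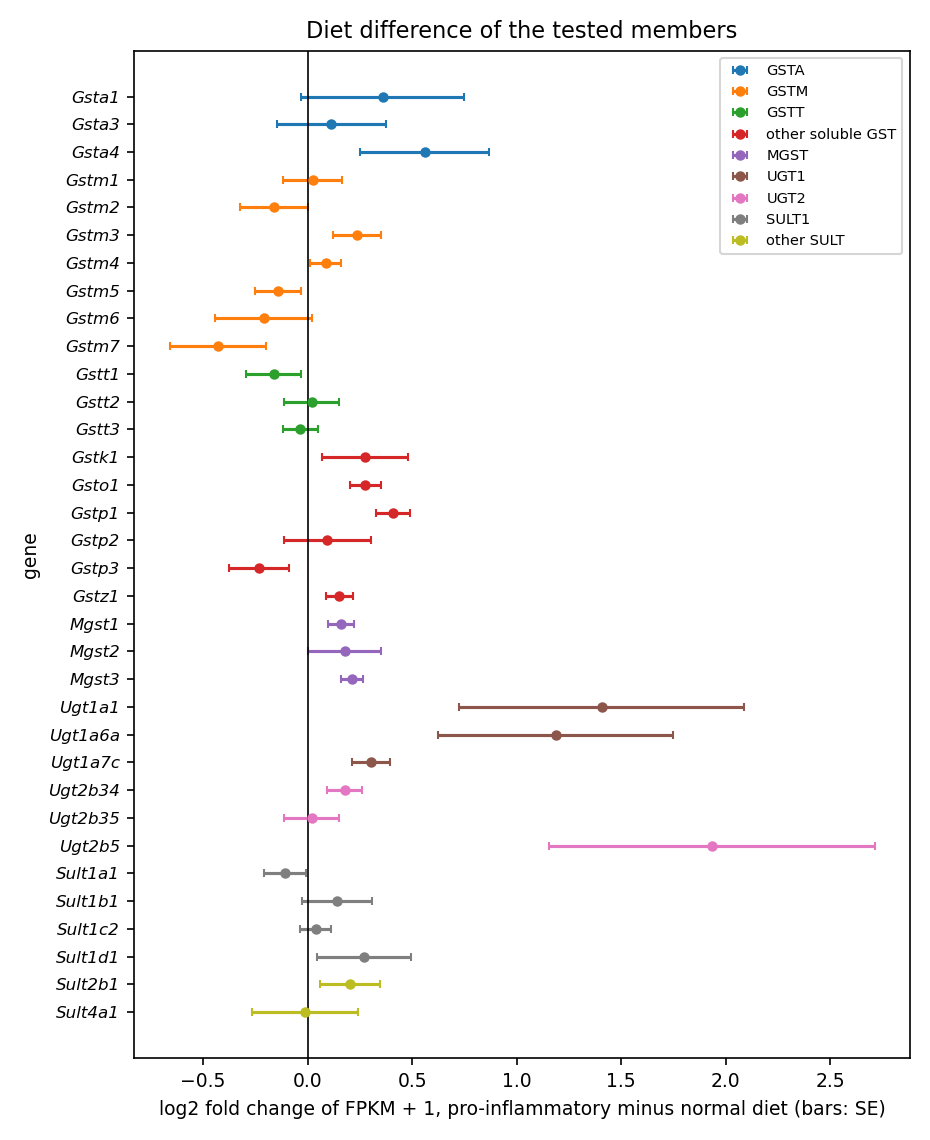
Each point is the log2 fold change of 1 tested member on the log2(FPKM + 1) scale, pro-inflammatory minus normal diet, and the bars are its standard error, with colours marking the families. The UGT genes Ugt2b5, Ugt1a1 and Ugt1a6a lie farthest to the right with the widest bars, while Gstp1, Gsto1 and Mgst3 have smaller differences and narrow bars.

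Levels of marker lists of other cell types are given beside these values, and no gene of them passed. All 10 smooth muscle genes had log2 fold changes below 0 (7 at an unadjusted p under 0.05), with summed levels of 2728 to 4055 FPKM on the normal and 2387 to 3264 on the pro-inflammatory diet, while 8 of 12 epithelial genes were above 0 (2 at an unadjusted p under 0.05), with 6925 to 9010.0 against 8078 to 9565. The absorptive colonocyte list (8 of 10 above 0) summed to 1469 to 2223 FPKM on the normal diet and to 2143 to 4753 on the pro-inflammatory diet, with 2 genes higher at an unadjusted p under 0.05. Most of that gap was Car1, at 3568 and 2334 FPKM in pro-inflammatory diet libraries 2 and 5 and 165 to 845 elsewhere, while Slc26a3 and Aqp8 were lowest in these libraries, at 59.5 and 146 and at 47.7 and 111 FPKM. The adipocyte list (6 of 6 tested above 0) summed to 24.9 to 103 against 33.9 to 260.5, and the immune list (9 of 9 tested above 0) to 384 to 565 against 412 to 964. Plin1 of the adipocyte list (means 0.699 and 2.17 FPKM) and Cd3e of the immune list (0.869 and 2.37) passed the filter only through the pro-inflammatory diet. That route favours a value above 0 for these genes. In both lists 0 genes had an unadjusted p under 0.05 and the sums overlapped, with libraries 3 and 4 of the pro-inflammatory diet within the normal diet range. Of 8 fibroblast genes, 6 were below 0 and 2 above, with 2 lower and 0 higher at an unadjusted p under 0.05. Of 8 goblet cell genes, 5 were below 0 and 3 above, with 0 at an unadjusted p under 0.05. Of all tested genes, 9.25% were lower and 8.16% higher at that threshold. With the smooth muscle minus epithelium score as a covariate, 5 members (14.7%) were higher at an unadjusted p under 0.05, against 5.18% of all tested genes, and 0 were lower, also against 5.18%. The log2 fold changes of Gstp1, Gsto1 and Mgst3 were then 0.37, 0.31 and 0.21. That of Ugt2b34 went from 0.18 to 0.34 (unadjusted p = 0.00255, limma adjusted p = 0.286), and the UGT2 median from 0.18 to 0.34. The part of the other lists in the results was not tested. In bulk tissue, fewer cells of a type and less RNA per cell cannot be told apart.

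The soluble glutathione transferases of the pi, omega, kappa and zeta classes held both of the soluble members whose values did not overlap between the diets. Of 7 genes, 6 were tested, 5 of them with fold changes above 0, and their median log2 fold change was 0.21. Their summed level was 414 to 459.9 FPKM on the normal and 519 to 593 on the pro-inflammatory diet, with Gsto1 at 63.5% of it. Gstp1, the pi-class enzyme and a classic NRF2 target (chromosome 19, 4035411 to 4037912, minus strand, GRCm38), was at 89.8, 102, 96.5, 111 and 119 FPKM in normal diet libraries 1 to 5 and 135, 144, 138, 146 and 124 in pro-inflammatory diet libraries 1 to 5. Every pro-inflammatory diet library was above every normal diet library, with 119 and 124 FPKM as the nearest values. The means were 104 ± 11.6 against 138 ± 8.59 FPKM (SD, n = 5 each; log2 fold change 0.41 with SE 0.082, adjusted p = 0.151 in limma), the smallest p of all members.

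Gsto1, an omega-class enzyme that reduces dehydroascorbate and arsenic compounds (chromosome 19, 47854973 to 47864790, plus strand), was the most abundant glutathione transferase. It was at 277, 274, 261, 298 and 292 FPKM in normal diet libraries 1 to 5 and 326, 307, 343, 391 and 338 in pro-inflammatory diet libraries 1 to 5. Its groups were also separate, with 298 and 307 FPKM as the nearest values and means of 281 ± 14.6 against 341 ± 31.1 FPKM (log2 fold change 0.28 with SE 0.072, adjusted p = 0.173 in limma). Gstz1, the zeta-class maleylacetoacetate isomerase of tyrosine breakdown, was at 7.87 ± 0.458 against 8.86 ± 0.709 FPKM with overlapping values (log2 fold change 0.15 with SE 0.065, adjusted p = 0.269 in limma; unadjusted p = 0.0415). Gstk1, the kappa-class enzyme of mitochondria and peroxisomes, was at 49.9 and 41.1 FPKM in pro-inflammatory diet libraries 2 and 5 and at 21.5 to 30.7 in the other 8 libraries. Gstp3 had a log2 fold change of -0.23 (limma adjusted p = 0.397), at 2.98, 2.73, 3.15, 3.61 and 2.14 FPKM in normal diet libraries 1 to 5 and 2.53, 1.43, 2.73, 2.84 and 2.23 in pro-inflammatory diet libraries 1 to 5. Its lowest value, 1.43 FPKM, was in pro-inflammatory diet library 2, and the groups overlapped. Gsto2 stayed under the filter in all 10 libraries, at 0.268 to 0.871 FPKM.

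Gstp1 and its neighbour Gstp2 share sequence. Of the stretches of 100 bases in the Gstp1 transcripts of the GENCODE M21 annotation, 38.4% also occur in Gstp2, so reads could be split between them. Gstp2 was at 13.3, 16.3, 14.7, 16.4 and 16 FPKM in normal diet libraries 1 to 5 and 21.4, 12.5, 21.3, 21.4 and 9.61 in pro-inflammatory diet libraries 1 to 5. Libraries 2 and 5 of the pro-inflammatory diet were its lowest, while libraries 1, 3 and 4 of that diet were its highest. The sum of both genes was 103, 118, 111, 127 and 135 FPKM on the normal diet and 157, 156, 159.7, 168 and 134 on the pro-inflammatory diet. In this sum library 5 of the pro-inflammatory diet lay just under library 5 of the normal diet, so the groups overlapped, with means of 119 ± 12.7 against 155 ± 12.6 FPKM (SD, n = 5 each) and a log2 fold change of 0.38.

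**Figure D2:**
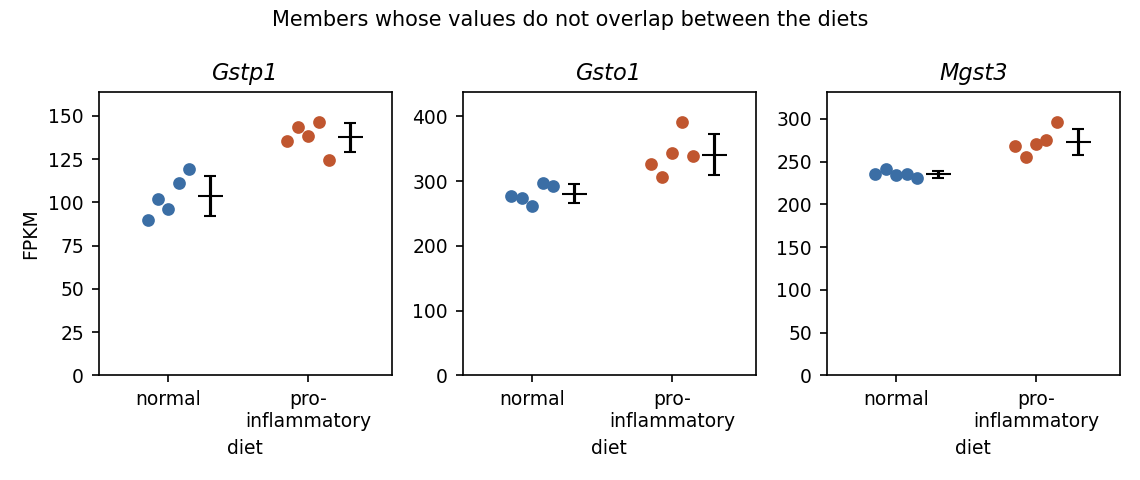
The points are the FPKM values of Gstp1, Gsto1 and Mgst3 in the 5 libraries of each diet, on axes that start at 0, and the cross with bars is the mean and SD. In each of the 3 genes the lowest pro-inflammatory diet value is above the highest normal diet value (124 against 119, 307 against 298 and 255 against 242 FPKM).

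The 3 microsomal glutathione transferases, membrane enzymes that act on lipid peroxides and, in part, make leukotriene C, all had fold changes above 0, and 2 of them had an unadjusted p under 0.05. The family summed to 346 to 366 FPKM on the normal and 395 to 439.6 on the pro-inflammatory diet. Mgst3 (chromosome 1, 167371966 to 167393841, minus strand), 66.6% of the family, was at 235, 242, 234, 235 and 231 FPKM in normal diet libraries 1 to 5 and 269, 255, 271, 275 and 296 in pro-inflammatory diet libraries 1 to 5. The 5 normal diet libraries lay between 231 and 242 FPKM, and all 5 pro-inflammatory diet libraries lay above them. Its means were 235 ± 4.01 against 273 ± 14.8 FPKM (log2 fold change 0.21 with SE 0.053, adjusted p = 0.166 in limma). Mgst1 was at 86.6 ± 5.49 against 96.8 ± 5.33 FPKM (log2 fold change 0.16 with SE 0.061, adjusted p = 0.232 in limma; unadjusted p = 0.0261) with overlapping values. Mgst2 was at 50.9 and 46.5 FPKM in pro-inflammatory diet libraries 2 and 5, above the 23.8 to 37.9 of the other 8 libraries, and its log2 fold change was 0.18 (limma adjusted p = 0.588).

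The promoters of Gstp1, Gsto1 and Mgst3 are printed because the values of these genes did not overlap between the diets. They are the 250 bases before the RefSeq start on GRCm38.p6, 5′ to 3′ on the strand of the gene. The capitals in Gstp1 mark TGAGTCAGC and GCGTCCTCA, which match TGAGNNNGC, an antioxidant response element core written with G, on the plus and the minus strand, and a GCGTG, the core of the xenobiotic response element bound by AHR, which shares 1 base with the second of them. The capitals in Mgst3 mark a GCGTG. The Gsto1 stretch has no capitals, as it holds none of the motifs searched.
Gstp1: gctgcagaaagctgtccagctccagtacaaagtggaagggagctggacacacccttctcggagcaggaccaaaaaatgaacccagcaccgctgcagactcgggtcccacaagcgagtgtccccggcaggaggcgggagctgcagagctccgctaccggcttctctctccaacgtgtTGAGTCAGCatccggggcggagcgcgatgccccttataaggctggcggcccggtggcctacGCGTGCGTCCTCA
Gsto1: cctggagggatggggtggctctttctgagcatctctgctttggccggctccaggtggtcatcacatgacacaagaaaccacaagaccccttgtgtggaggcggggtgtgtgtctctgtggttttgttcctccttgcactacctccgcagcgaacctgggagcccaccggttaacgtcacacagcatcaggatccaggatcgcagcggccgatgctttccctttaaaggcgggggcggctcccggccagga
Mgst3: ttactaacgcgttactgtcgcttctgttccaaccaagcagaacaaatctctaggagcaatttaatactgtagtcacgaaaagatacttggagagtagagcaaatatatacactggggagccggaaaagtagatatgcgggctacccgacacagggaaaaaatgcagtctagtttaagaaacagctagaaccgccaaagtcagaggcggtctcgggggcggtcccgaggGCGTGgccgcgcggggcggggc
The Gstp1 stretch lies at chr19:4037913-4038162, minus strand, that of Gsto1 at chr19:47854723-47854972, plus strand, and that of Mgst3 at chr1:167393842-167394091, minus strand. The TGAGTCAGC of Gstp1 is at 74 to 66 bases before the start, and Gstp2 holds the same letters at 89 to 81 before its own. A match is a description of letters and shows no binding.

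The alpha class, which reduces lipid hydroperoxides, had 3 of 4 members tested, all with fold changes above 0 and a median of 0.36. This median was 0.18 without normal diet library 2, 0.22 without pro-inflammatory diet library 5, 0.62 without pro-inflammatory diet library 1 and 0.044 without pro-inflammatory diet libraries 2 and 5, where Gsta1 was at -0.038. Gsta4, which is specialised for the lipid aldehyde 4-hydroxynonenal, made up 69.2% of the family and was at 22.9, 20.3, 28.4, 27 and 17.2 FPKM in normal diet libraries 1 to 5 and 20, 65.2, 25.2, 25.8 and 53.3 in pro-inflammatory diet libraries 1 to 5. Only pro-inflammatory diet libraries 2 and 5 stood above the rest, and the other 3 libraries of that diet lay within the normal diet range (log2 fold change 0.56, SE 0.31, limma adjusted p = 0.359). Without these 2 libraries its log2 fold change was 0.044. Gsta1 had its 2 highest values in the same libraries, 10.9 and 10.2 FPKM, just above the 9.35 of normal diet library 4, and shares 19.9% of its stretches of 100 bases with Gsta2. Gsta3, on another chromosome than the other 3, was lowest in pro-inflammatory diet library 2, at 2.91 FPKM, and highest in libraries 1, 3 and 4 of that diet, at 8.7 to 9.55.

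In the mu class, 7 of 7 members were tested, 3 with fold changes above 0 and 4 below, with a median of -0.14 and none at an unadjusted p under 0.05. Gstm1, the leading member of this detoxifying class (56.6% of the family), was at 198, 197, 169.5, 162 and 190.0 FPKM in normal diet libraries 1 to 5 and 226, 146, 198, 231 and 148 in pro-inflammatory diet libraries 1 to 5. On the pro-inflammatory diet libraries 1 and 4 were its highest of all 10 and libraries 2 and 5 its lowest, while the group means were 184 ± 16.5 against 189.7 ± 41.2 FPKM. Its log2 fold change of 0.024 (limma adjusted p = 0.94) was -0.065 with quantile normalization. Gstm7 was at 7.35, 5.83, 8.12, 5.7 and 7.56 FPKM in normal diet libraries 1 to 5 and 6.89, 2.78, 6.51, 6.54 and 2.97 in pro-inflammatory diet libraries 1 to 5, the lowest log2 fold change of all members at -0.43 (limma adjusted p = 0.345). Gstm6 was at 8.04, 7.65, 5.81, 7.82 and 7.79 FPKM in normal diet libraries 1 to 5 and 8.78, 3.31, 8.34, 8.58 and 4.29 in pro-inflammatory diet libraries 1 to 5 (log2 fold change -0.21, limma adjusted p = 0.637). In both genes only libraries 2 and 5 of the pro-inflammatory diet lay below the range of the other 8 libraries. Gstm2 and Gstm5 had the same 2 lowest libraries. Gstm3 was at 21.9, 20.8, 18.1, 19.7 and 19.1 FPKM in normal diet libraries 1 to 5 and 27.3, 19.7, 23.9, 29.1 and 19.4 in pro-inflammatory diet libraries 1 to 5. Its libraries 1, 3 and 4 of the pro-inflammatory diet were highest and libraries 2 and 5 lay within the normal diet range (log2 fold change 0.23, limma adjusted p = 0.31). Gstm4 ran from 4.48 to 6.07 FPKM over all 10 libraries.

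The theta class, which acts on small halogenated compounds, repeated this order. Gstt3 was at 34, 32.1, 30.8, 32 and 33.1 FPKM in normal diet libraries 1 to 5 and 36.4, 26.9, 31.6, 35.4 and 28.6 in pro-inflammatory diet libraries 1 to 5. Gstt1 was at 29.3, 26.2, 21.7, 24.3 and 27.2 FPKM in normal diet libraries 1 to 5 and 28.9, 17.5, 23.1, 26.2 and 19.8 in pro-inflammatory diet libraries 1 to 5. In Gstt1, Gstt2 and Gstt3 the 2 lowest values of 10 were those of pro-inflammatory diet libraries 2 and 5, and the log2 fold changes were -0.16, 0.019 and -0.036, with limma adjusted p values of 0.514, 0.949 and 0.836. Gstt4 reached at most 0.196 FPKM.

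The UGT1 genes are 8 alternative starts at one locus (chromosome 1, 88070779 to 88220002), each with its own first exon in front of shared later exons. Of these 8, 3 were tested, all with fold changes above 0. Ugt1a1, the enzyme that conjugates bilirubin, was at 2.62, 1.19, 2.41, 2.69 and 1.42 FPKM in normal diet libraries 1 to 5 and 2.32, 27.3, 2.48, 2.28 and 28.4 in pro-inflammatory diet libraries 1 to 5. Ugt1a6a, which conjugates small phenols, was at 1.91, 1.16, 1.83, 0.876 and 1.29 FPKM in normal diet libraries 1 to 5 and 1.81, 16.7, 1.52, 1.7 and 12.8 in pro-inflammatory diet libraries 1 to 5. In both genes pro-inflammatory diet libraries 2 and 5 stood above every other library, whose highest values were 2.69 and 1.91 FPKM, and libraries 1, 3 and 4 of that diet lay within the normal diet range. The means were 2.06 ± 0.706 against 12.6 ± 14 FPKM for Ugt1a1 (log2 fold change 1.41 with SE 0.68, adjusted p = 0.31 in limma). For Ugt1a6a they were 1.41 ± 0.445 against 6.91 ± 7.29 FPKM (log2 fold change 1.19 with SE 0.56, adjusted p = 0.304 in limma). Without these 2 libraries the log2 fold changes were 0.17 (limma adjusted p = 0.678) and 0.17 (limma adjusted p = 0.616), and with the distal colon score as a covariate over all 10 libraries they were 0.34 and 0.28. That score was low only in these 2 libraries, so the covariate largely repeats leaving them out.

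Ugt1a7c, at 26.3, 20.9, 24.6, 24 and 24.4 FPKM in normal diet libraries 1 to 5 and 25.7, 33.4, 28, 28.1 and 34.5 in pro-inflammatory diet libraries 1 to 5, was the most abundant of the locus, at 70% of its summed FPKM. Its highest libraries were again 2 and 5 of the pro-inflammatory diet, but libraries 3 and 4 of that diet also lay above all 5 of the normal diet (log2 fold change 0.30, SE 0.091, unadjusted p = 0.00751, limma adjusted p = 0.182). The other 5 genes of the locus lay at or below 0.166 FPKM in every library, and Ugt1a9 was listed at 0 in 9 of 10. In part because of the shared exons, 57.2% of the 100-base stretches of Ugt1a1, 95.7% of those of Ugt1a6a and 52.7% of those of Ugt1a7c also occur in another UGT1 gene. The share of Ugt1a6a, with Ugt1a7c as its closest member, is above the 52.7% to 70.9% of the other genes of the locus. Little of its annotated sequence is thus its own. How these genes divide the reads depends on the authors' counting. Summed over the 8 genes, the locus was at 77.5 and 76 FPKM in pro-inflammatory diet libraries 2 and 5 and 23.2 to 32.2 in the other 8 libraries.

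The UGT2 genes form a cluster of 10 on chromosome 5 (86889770 to 87490871), of which 3 were tested. Ugt2b34 made up 91% of the family and was, after Gsto1, Mgst3 and Gstm1, the most abundant member of all. It was at 181, 148, 145, 139 and 165 FPKM in normal diet libraries 1 to 5 and 192, 164, 164, 174 and 184 in pro-inflammatory diet libraries 1 to 5. All 5 pro-inflammatory diet libraries lay between 164 and 192 FPKM, and normal diet libraries 1 and 5 reached into that range (means 156 ± 17 against 176 ± 12.3 FPKM; log2 fold change 0.18 with SE 0.082, adjusted p = 0.298 in limma). Ugt2b5, a mouse UGT2B enzyme that is abundant in liver (chromosome 5, 87124946 to 87140340, minus strand), was at 0.642, 0.404, 0.856, 0.239 and 0.0292 FPKM in normal diet libraries 1 to 5 and 1.55, 26.4, 2.21, 0.128 and 16.5 in pro-inflammatory diet libraries 1 to 5. Pro-inflammatory diet libraries 2 and 5 stood above the next library, at 2.21 FPKM, with libraries 1 and 3 of that diet above and library 4 within the normal diet range. Its log2 fold change of 1.93 (SE 0.78, unadjusted p = 0.0314, limma adjusted p = 0.247) was the largest of all members and 0.58 without libraries 2 and 5 (limma adjusted p = 0.416). It was 2.92 with a pseudocount of 0.1, 3.28 with voom (unadjusted p = 0.143) and 0.90 with array weights. Leaving out 1 library in turn, its unadjusted p was under 0.05 in 5 of 10 cases and ran up to 0.0769, the 5 others being those that dropped libraries 2, 4 and 5 of the normal or 2 and 5 of the pro-inflammatory diet. Ugt2b5 shares 24.7% of its 100-base stretches with Ugt2b38, which reached 0.241 and 0.199 FPKM in the same 2 libraries and at most 0.0862 elsewhere. Ugt2b35 was between 7.64 and 12.7 FPKM, lowest in pro-inflammatory diet libraries 2 and 5 (log2 fold change 0.019).

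**Figure D3:**
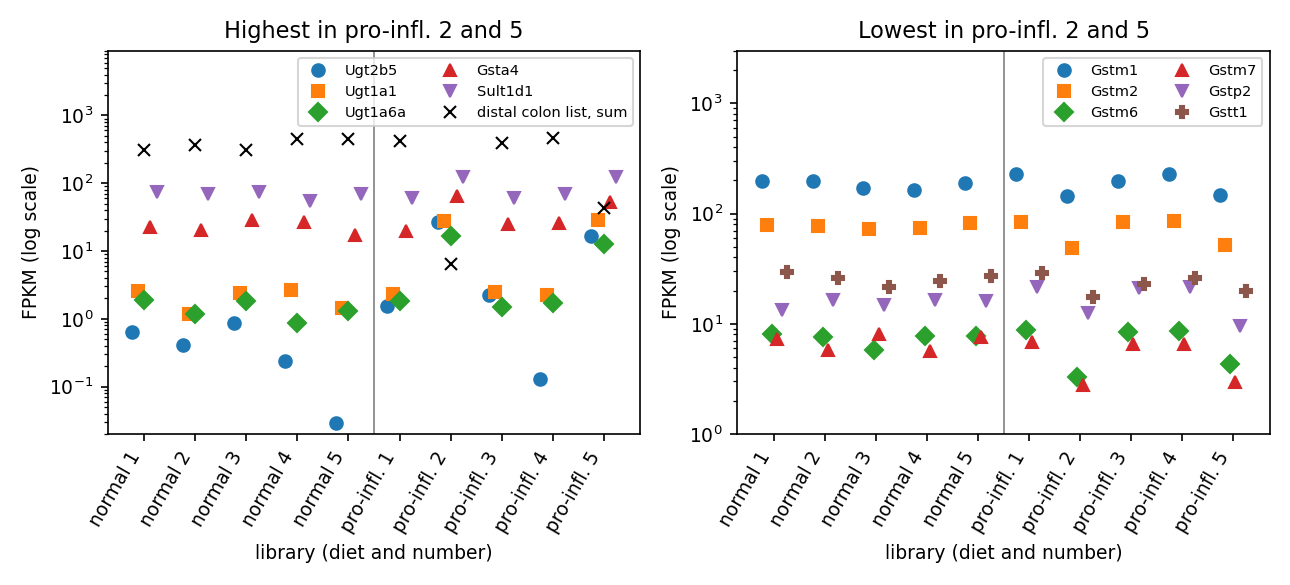
FPKM on a log axis in each of the 10 libraries, at the left for members highest in pro-inflammatory diet libraries 2 and 5 with the summed distal colon markers as crosses, and at the right for members lowest there. In libraries 2 and 5 Ugt1a1 reaches 27.3 and 28.4 FPKM and Gstm7 drops to 2.78 and 2.97, while the distal colon sum is 6.45 and 43.8.

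The sulfotransferases of the SULT1 family, which act on phenols, thyroid hormone and oestrogens, had 4 of 6 members tested, 3 above 0 and 1 below. Sult1d1, which sulfates catecholamines and other phenols, was at 74.2, 70.2, 74.5, 53.9 and 69.5 FPKM in normal diet libraries 1 to 5 and 60.1, 124, 59.8, 68.2 and 122 in pro-inflammatory diet libraries 1 to 5. Libraries 2 and 5 of the pro-inflammatory diet were its highest, the next library lying at 74.5 FPKM, and the other 3 overlapped the normal diet (log2 fold change 0.27, limma adjusted p = 0.53, but -0.12 without these 2 libraries). Sult1a1, the main phenol sulfotransferase and the SULT with the highest mean over all 10 libraries (30.9% of its family), was at 91.5, 87.4, 84.8, 70.5 and 78.4 FPKM in normal diet libraries 1 to 5 and 85.8, 65.6, 88.4, 71.3 and 71.9 in pro-inflammatory diet libraries 1 to 5 (log2 fold change -0.11, limma adjusted p = 0.559). Its groups overlapped over most of their range. On the pro-inflammatory diet the mean of Sult1d1 was higher than that of Sult1a1 (86.8 against 76.6 FPKM). Sult1b1, which sulfates thyroid hormone, was highest in pro-inflammatory diet library 4 at 94.3 FPKM and near its lowest in library 2 at 50.6. Sult1c2 varied little, between 29.5 and 36.8 FPKM. Outside SULT1, the cholesterol sulfotransferase Sult2b1 was at 7.997, 9.7, 8.42, 14.6 and 10.7 FPKM in normal diet libraries 1 to 5 and 11.5, 9.94, 13.3, 11.2 and 13.1 in pro-inflammatory diet libraries 1 to 5, with normal diet library 4 highest (log2 fold change 0.20, limma adjusted p = 0.455). Sult4a1, known as a brain sulfotransferase, was between 0.649 and 3 FPKM.

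Of the 57 members, 52 had a RefSeq promoter of 250 bases before to 50 after the start, and 3 motifs were searched on both strands. TGACNNNGC, the antioxidant response element core, was in 3 of 52 (5.77%, against 12.5% of 27025 promoters), namely Gsta3, Gstm5 and Mgst1, where it overlaps a GCGTG in Gstm5. TGAGNNNGC, added after the data were seen, was in 13 (25%, against 17.5%), among them Gstp1, Gstp2, Gstp3, Gstz1, Gstt1, Ugt1a1 and Ugt1a7c. GCGTG was in 12 (23.1%, against 32.5%), among them Gstp1, Mgst3, Gstm1, Gstm5 and Sult1d1. Promoters of neighbouring copies in a cluster share descent, so these counts are not of independent sequences.

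Across the families, pro-inflammatory diet libraries 2 and 5 held the 2 highest of 10 values in 10 of 34 members (29.4%, against 13.9% of all tested genes) and the 2 lowest in another 10 (29.4%, against 17.4%). The high side held Ugt1a1, Ugt1a6a, Ugt1a7c, Ugt2b5, Gsta1, Gsta4, Gstk1, Mgst2, Sult1d1 and Sult4a1. The low side held Gstm1, Gstm2, Gstm5, Gstm6, Gstm7, Gstt1, Gstt2, Gstt3, Gstp2 and Ugt2b35. All 3 tested theta genes and 5 of 7 mu genes were thus on the low side, and all 3 tested UGT1 genes on the high side. These are the libraries with little of the distal colon list and the most Fabp2 and Alpi, while Rbp2 of the same small intestine list was lowest there. Their part in the high and low values was examined only through the distal colon covariate and by leaving these libraries out. As the distal colon list was low only in these libraries, the 2 checks are nearly the same.

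**Figure D4:**
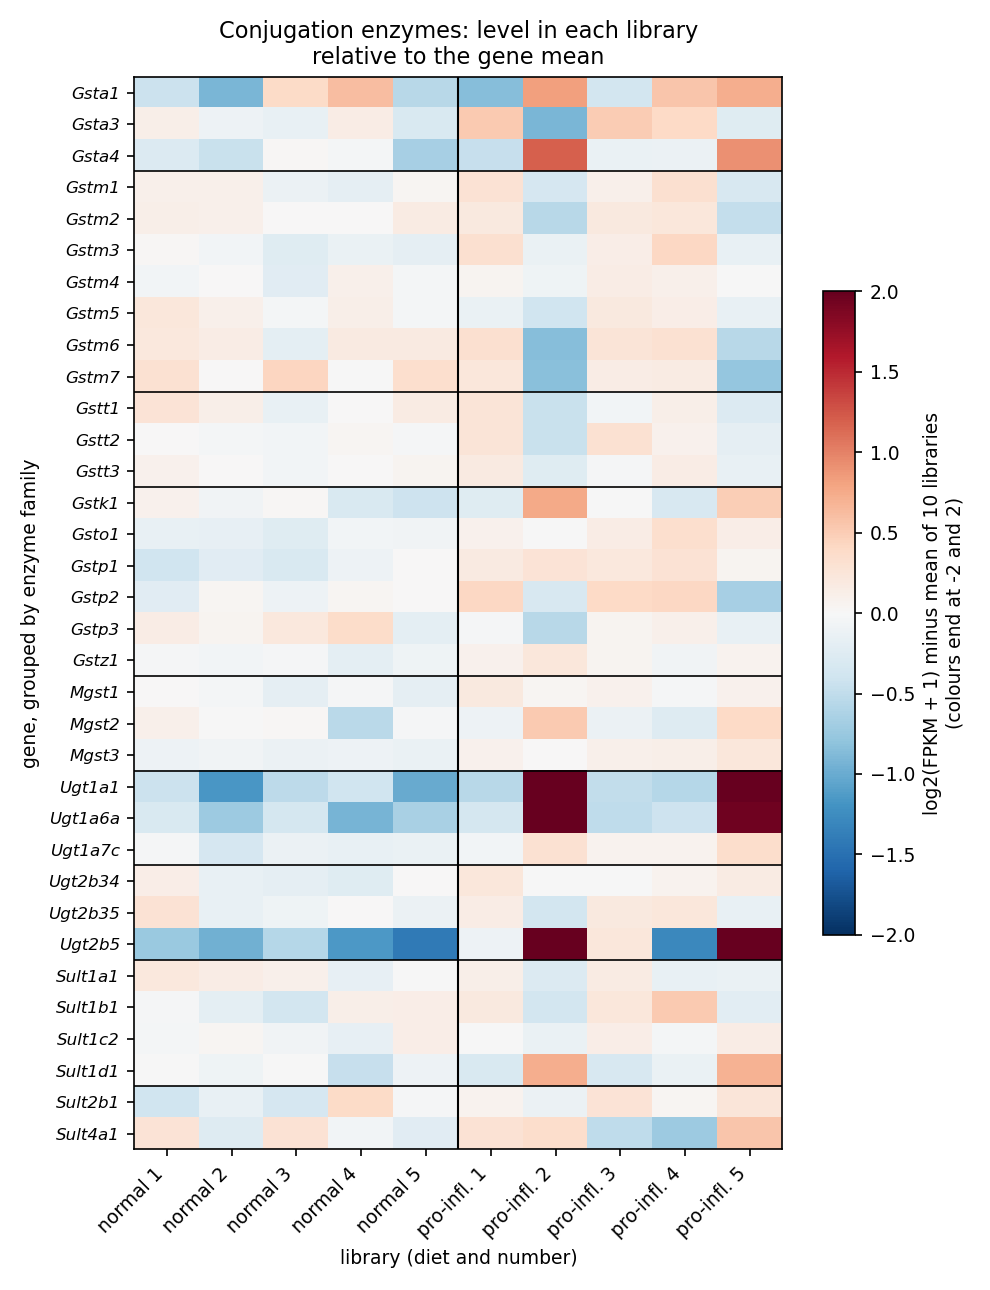
Rows are the 34 tested members by family, columns the 10 libraries, and colour is log2(FPKM + 1) minus the mean of the gene over the 10 libraries, ending at -2 and 2. The columns of pro-inflammatory diet libraries 2 and 5 are red in the UGT1 rows, Ugt2b5, Gsta4 and Sult1d1 and blue in most mu and theta rows, while Gsto1, Gstp1 and Mgst3 are red or pale in all 5 pro-inflammatory diet columns.

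Without pro-inflammatory diet libraries 2 and 5, in 3 against 5 libraries, 12 of 34 members (35.3%, against 8.06% of all tested genes) were higher at an unadjusted p under 0.05 and 0 were lower (against 7.36%). In 10 members (29.4%, against 5.24%) the 3 values lay above all 5 of the normal diet, and in 0 (against 4.33%) below. The 10 were Gstp1, Gstp2, Gsto1, Mgst3, Gstm2, Gstm3, Gstm6, Gsta3, Gstt2 and Sult1b1, chosen after their values were seen. Again 0 passed the adjusted threshold (limma, Benjamini-Hochberg). The log2 fold change of Gstp2 went from 0.10 to 0.45 (unadjusted p = 0.000187, limma adjusted p = 0.234) and that of Gsta3 from 0.11 to 0.53, while those of Gstp1, Gsto1 and Mgst3 were 0.44, 0.33 and 0.205. The median over the mu class went from -0.14 to 0.15 and over UGT1 from 1.19 to 0.17.

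Among the 23 members under the filter, 4 reached 1 FPKM in some library: Gsta2, Sult2a8, Sult5a1 and Ugt2b36. Sult2a8, a bile acid sulfotransferase of mouse liver, had 51 and 53 reads in pro-inflammatory diet libraries 1 and 3, 1 read in each of normal diet libraries 2 and 4 and 0 in the other 6. Ugt3a2 had 27 reads in each of the same 2 libraries and at most 3 elsewhere. Ugt2b1, a major UGT of mouse liver, had 33 and 24 reads there and at most 9 elsewhere, and Ugt2a3 had 24 and 15 there, 8 in normal diet library 4 and 0 in the other 7. The hepatocyte list (Alb, Apoa2, Ttr, Serpina1a, Fgb, Tat and Ahsg, 7 of 7 measured) summed to 230.2 and 236 FPKM in these 2 libraries, 44.1 to 62.5 on the normal diet and 17.1, 53.5 and 17 in pro-inflammatory diet libraries 2, 4 and 5, with Alb at 97.3 and 100.4 FPKM against 0.166 to 8.45 elsewhere and Fgb at 0 in libraries 2 and 5. The list did not move as one. Tat was at 18.8 and 18 FPKM in pro-inflammatory diet libraries 1 and 3, against 18.6 in normal diet library 4 and 19.4 in pro-inflammatory diet library 4. Ttr was at 48.3 and 48.1 FPKM in libraries 1 and 3, 26.2 to 38.6 on the normal diet and 0.91 and 2.58 in libraries 2 and 5. Together, Ttr and Tat held most of the normal diet sum. The part of the hepatocyte list in the reads of these members was not tested.

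**Figure D5:**
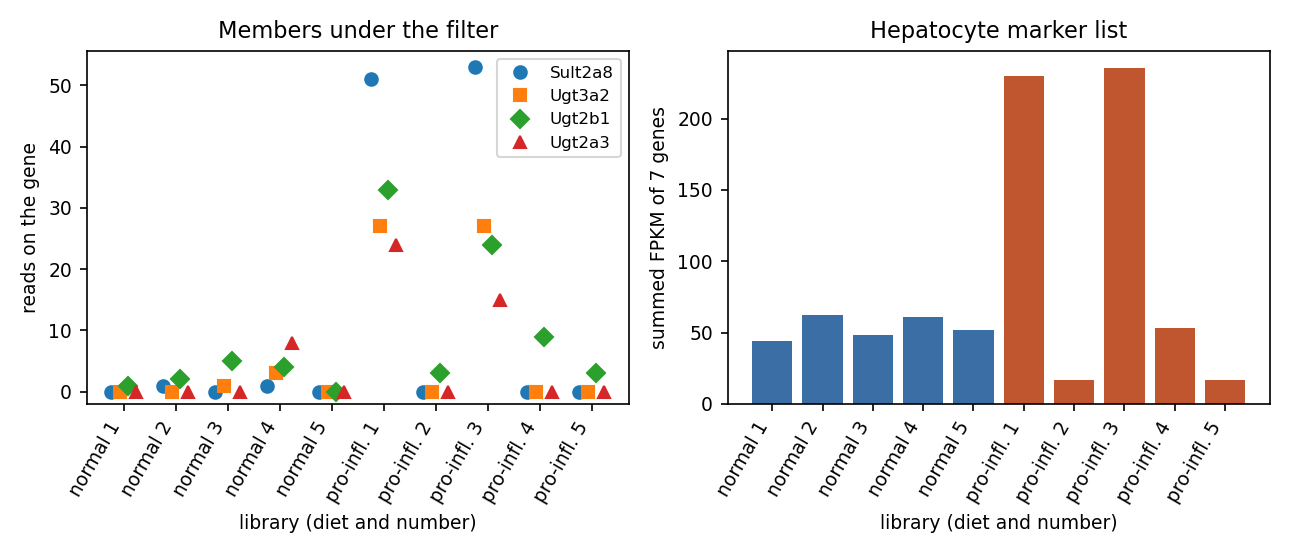
Left, reads on Sult2a8, Ugt3a2, Ugt2b1 and Ugt2a3 in each library, and right, the summed FPKM of the 7 hepatocyte markers as bars from 0, blue for normal and red for pro-inflammatory diet. The reads of all 4 genes and the marker sum are highest in pro-inflammatory diet libraries 1 and 3, where Sult2a8 has 51 and 53 reads.

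Ugt2b36 had 37, 65, 55, 9 and 54 reads in pro-inflammatory diet libraries 1 to 5 and 11, 5, 12, 3 and 5 in those of the normal diet, so 4 of 5 lay above the normal diet range and library 4 within it. Ugt8a, which makes the galactosyl lipids of myelin, had 35 and 33 reads in pro-inflammatory diet libraries 2 and 5 and 4 to 11 elsewhere. Normal diet library 4 held the most reads of the oestrogen sulfotransferase Sult1e1 (21) and of Sult5a1 (31), against at most 10 and 7 elsewhere. The remaining members under the filter were Gsta2, Gsto2, Gstt4, Sult1c1, Sult6b1, Ugt1a2, Ugt1a5, Ugt1a6b, Ugt1a8, Ugt1a9, Ugt2a1, Ugt2a2, Ugt2b37, Ugt2b38 and Ugt3a1. Of these Gsta2 reached 1.42 FPKM and the other 14 stayed at or below 0.871 FPKM in every library.

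The supply of the conjugated groups was examined through a list of enzymes and carriers. Of 15 tested genes, 13 had fold changes above 0 and 2 below, 6 were higher at an unadjusted p under 0.05, 0 lower and 0 passed, with a median of 0.203. Ggt1, among those below 0, passed the filter only through the normal diet, with means of 1.14 and 0.953 FPKM. For this and the lists that follow, the shares over all tested genes are 8.16% higher and 9.25% lower at an unadjusted p, 47.1% above 0, and 1.77% without overlap on the higher and 2.07% on the lower side. Gclm, the modifier subunit of glutamate-cysteine ligase, was at 23.6 ± 2.43 against 28.2 ± 1.24 FPKM (log2 fold change 0.25 with SE 0.072, adjusted p = 0.175 in limma), and Gss, glutathione synthetase, at 61 ± 3.79 against 70.3 ± 2.51 FPKM, both without overlap between the diets. Pgd, which makes NADPH for glutathione reduction, was at 88.4, 91.1, 89.3, 111 and 90.3 FPKM in normal diet libraries 1 to 5 and 103, 135, 122, 117 and 122 in pro-inflammatory diet libraries 1 to 5. Its groups overlapped, as normal diet library 4 lay above library 1 of the pro-inflammatory diet (log2 fold change 0.35 with SE 0.087, adjusted p = 0.166 in limma). Slc35b2, the carrier of PAPS into the Golgi, was at 14.9 ± 0.999 against 18.7 ± 2.01 FPKM (log2 fold change 0.30). It moves PAPS out of the cytosol and so does not supply cytosolic sulfotransferases such as the members. Ugdh, which makes UDP-glucuronate, was at 111, 95, 95.2, 77.3 and 101 FPKM in normal diet libraries 1 to 5 and 109, 180.1, 86.8, 104 and 153 in pro-inflammatory diet libraries 1 to 5. Libraries 2 and 5 of the pro-inflammatory diet were its highest, as in the UGT1 genes (log2 fold change 0.35, limma adjusted p = 0.343).

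Of a list of exporters, not all of which mainly carry conjugates, 4 of 5 tested genes were above 0, 1 at an unadjusted p under 0.05. Abcc3, a basolateral exporter of glucuronides, was at 39.3, 35.4, 39.7, 40.9 and 38.2 FPKM in normal diet libraries 1 to 5 and 42.7, 81.2, 42.4, 42.9 and 62.8 in pro-inflammatory diet libraries 1 to 5. All 5 pro-inflammatory diet values lay above the normal diet, with libraries 2 and 5 highest (log2 fold change 0.43 with SE 0.17, adjusted p = 0.244 in limma). Abcb1a, which is not mainly a carrier of conjugates, was at 97.6 ± 8.69 against 108 ± 13.6 FPKM. Among enzymes listed as removing or trimming the conjugated group, not all of which act on phase II conjugates, 6 of 8 were above 0. None had an unadjusted p under 0.05. The steroid sulfatase Sts and Arsk, a sulfatase of glycosaminoglycans, had log2 fold changes of -0.29 and -0.24. Dpep1, a dipeptidase that cleaves the glutathione-derived cysteinylglycine, was at 119 and 158 FPKM in pro-inflammatory diet libraries 2 and 5 and at 31.8 to 61.9 in the other 8.

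Of 15 tested regulators, 8 were above 0 and 7 below, and an unadjusted p under 0.05 was reached by 2 on the higher and 1 on the lower side. Keap1, which holds NRF2 for degradation, was at 13.8, 13, 14.4, 14.1 and 14.3 FPKM in normal diet libraries 1 to 5 and 15.4, 18.3, 17.2, 15.8 and 19 in pro-inflammatory diet libraries 1 to 5. The groups did not overlap (log2 fold change 0.28 with SE 0.066, adjusted p = 0.166 in limma). Nfe2l1, an NRF2-related factor of proteasome genes, did not overlap in the other direction, at 55 ± 2.8 against 45.8 ± 3.51 FPKM (log2 fold change -0.26 with SE 0.064, adjusted p = 0.166 in limma). The gene for NRF2 itself, Nfe2l2, had a log2 fold change of 0.03 (limma adjusted p = 0.914), and Hnf4a was at 215 ± 36.9 against 192 ± 9.14 FPKM (log2 fold change -0.15). Of 12 tested NRF2 targets outside the members, 11 were above 0, 6 at an unadjusted p under 0.05, with a median of 0.22. The 1 below 0 was Hmox1 (log2 fold change -0.11, limma adjusted p = 0.75). Nqo1 had a log2 fold change of 0.24 (limma adjusted p = 0.664). Its values were 12.4 and 15.4 FPKM for pro-inflammatory diet libraries 2 and 5. Libraries 1, 3 and 4, at 5.7, 5.2 and 6.5, lay within the 4.7 to 8.7 of the normal diet. Slc7a11 (means 0.43 and 0.39 FPKM) and Aox1 (0.78 and 0.66) lay under the filter. Prdx1, a peroxiredoxin, was at 255 ± 18.3 against 299 ± 16.9 FPKM (log2 fold change 0.23 with SE 0.067, adjusted p = 0.175 in limma), and the ferritin heavy chain Fth1 had a log2 fold change of 0.056 that was -0.072 with quantile normalization. Gclc, Gclm, Gsr, G6pdx and Slc7a11 are in both this list and that of cofactor supply.

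Of 16 tested phase I enzymes, which oxidise or hydrolyse compounds before conjugation, 15 were above 0, 5 of them at an unadjusted p under 0.05, with a median of 0.43. Cyp3a11 passed the filter only through pro-inflammatory diet libraries 1 and 3, at 9.04 and 6.68 FPKM, with a normal diet mean of 0.137. In Cyp2c65, Cyp2c55, Aldh1a1, Ces1f and Ces2e libraries 2 and 5 of that diet held the 2 highest values, for example at 221 and 194 FPKM in Cyp2c65 against 1.31 to 16.9 elsewhere. The carboxylesterase Ces2c was at 76.7, 80.2, 72.3, 71.4 and 84 FPKM in normal diet libraries 1 to 5 and 106, 138, 96.6, 96.5 and 106 in pro-inflammatory diet libraries 1 to 5. Its groups did not overlap (log2 fold change 0.48 with SE 0.10, adjusted p = 0.151 in limma), nor did those of the epoxide hydrolase Ephx2, at 9.65 ± 0.949 against 11.8 ± 0.933 FPKM (log2 fold change 0.27). Adh1, the alcohol dehydrogenase, was at 73 and 156 FPKM in pro-inflammatory diet libraries 2 and 5 and at 692 to 1198 in the other 8. Of 9 tested enzymes of other conjugation routes (methylation, acetylation, amino acid conjugation), 7 were above 0 and none had an unadjusted p under 0.05. Nat2 and Hpgds, the sigma-class glutathione transferase that makes prostaglandin D, had log2 fold changes of 0.23 and 0.17, and Acsm3 was at 30.1 and 43.6 FPKM in pro-inflammatory diet libraries 2 and 5 and at 90.7 to 137 in the other 8.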

How the data were processed

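The authors deposited 1 FPKM value per gene and library, for 18398 genes in 10 libraries. Per the submitters' processing notes, HISAT2, Bowtie2, StringTie, Cufflinks, Trimmomatic, HTSeq and DESeq were run with mm10, without the role of each. Per the labels' protocols, a kit for stranded mRNA served for the libraries, which were read in pairs. The sources used here do not say whether counting used strand or how reads shared by gene copies were treated. FPKM scales by gene length and library total, and the totals ran from 380001 to 404462.

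The deposited FPKM values were whole multiples of 1 read per gene, within 0.001 read, for all 17570 genes above 0 in at least 2 libraries, which gave whole reads. The other 828 were seen in 1 library and have no scale of their own, so this says nothing of them and no reads are given for them. Genes with a mean of at least 1 FPKM (12345) entered limma 3.58.1 (eBayes with a mean trend, R 4.3.3) as log2(FPKM + 1), with Benjamini-Hochberg adjustment at 0.05. Data were simulated from these 12345 genes as independent normal draws, with the fold applied to FPKM + 1. In them 71.6% of 67 genes changed by 1.5-fold, 83.6% of 67 by 2-fold and 93.9% of 66 by 4-fold were called, with 12 false calls. For genes near 1 FPKM such a fold is a larger change of the FPKM itself. What share would be called in the measured libraries, some of which stood apart from the others, was not tested. Positions and promoters are from RefSeq GRCm38.p6, the assembly of mm10, matched by symbol for 57 members (52 with a promoter), and transcripts from GENCODE M21. Scripts used Python 3.11.15 and matplotlib 3.10.9.

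The members and lists were chosen with earlier results of these data known. Named in each family are the member with the highest mean and the one with the smallest p, besides members without overlap, the 3 largest fold changes in each direction and members whose highest library exceeds 3 times their median. From each pathway list, the 2 genes with the smallest p and the one with the highest mean are named. Others were named after their values were seen. Some planned items, among them 1 motif and 2 regulators, are not reported here. Protein identity between members was not run, and shared transcript stretches were used in its place. Alternatives changed the pseudocount (0.1, 0.5), the filter, the scaling, the variance model, the weights, the libraries included and the covariates, or ran limma voom on the reads.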

Additional observations from a re-analysis of the deposited data

Results flagged for a closer look

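In 3 of 68 groups of 5 libraries, the lowest or highest value lay farther from the others than Dixon's criterion allows, and chance gives about 1 in 20 such groups. Mgst2 was at 23.8 FPKM in normal diet library 4, against 34.5 to 37.9 in the other 4 libraries of that diet. Sult1d1 was at 53.9 FPKM in the same library, against 69.5 to 74.5. Gstm6 was at 5.81 FPKM in normal diet library 3, against 7.65 to 8.04 in the other 4.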

How the results depend on the processing

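Over 26 alternatives, 0 of all genes and 0 members passed the adjusted threshold in any, and 28 of 39 named genes kept the sign of their log2 fold change. The lowest adjusted p of a named gene was 0.0604, for Gstp1 with array weights. The log2 fold changes ran from 0.25 to 0.46 for Gstp1, 0.20 to 0.35 for Gsto1 and 0.15 to 0.24 for Mgst3. Members higher at an unadjusted p numbered 7, or 4 to 9 leaving out 1 library (all genes 5.25% to 9.87%), 11 with array weights (32.4%, all genes 10.7%), 12 without pro-inflammatory diet libraries 2 and 5 (35.3%, all genes 8.06%), 2 without normal diet libraries 1 to 3 (5.88%, all genes 1.81%) and 12 with a distal colon covariate (35.3%, all genes 8.64%). Members lower numbered 0 to 1 leaving out 1 library (all genes 6.54% to 12.3%). Without pro-inflammatory diet libraries 1 and 3, an alternative added after the data were seen, they numbered 2 (5.88%, all genes 12%). Members without overlap on the higher side numbered 3 to 6 leaving out 1 library (all genes 1.95% to 4.94%). They numbered 10 without pro-inflammatory diet libraries 2 and 5 (29.4%, all genes 5.24%) and 7 without normal diet libraries 1 to 3 (20.6%, all genes 4.8%). The normal diet was then 2 libraries, assumed to vary like the rest. The median of the pi, omega, kappa and zeta classes was 0.15 to 0.23 leaving out 1 library, 0.15 without a filter, 0.27 with a filter of 5 FPKM and 0.14 with the smooth muscle covariate. The UGT1 median was 0.051 without a filter, 0.50 with array weights, 0.17 without libraries 2 and 5, 0.28 with a distal colon covariate and 1.87 without libraries 1 and 3, where the GSTA median was 0.89. The SULT1 median was 0.014 without a filter, 0.012 with array weights, 0.018 without libraries 2 and 5 and 0.017 with a distal colon covariate, and the GSTM median in the last 3 was 0.072, 0.15 and 0.15.

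Signs turned for Gstm1 with quantile normalization (-0.065), leaving out 1 library (-0.053 to 0.11) and without libraries 1 and 3 (-0.10), and for Fth1 with quantile normalization (-0.072). With array weights they turned for Gstm6 (0.072), Gstt3 (0.047) and Acsm3 (0.038). Without libraries 2 and 5 they turned for Gstm6 (0.19), Gstt1 (0.021), Gstt3 (0.084), Sult1d1 (-0.12), Dpep1 (-0.062), Acsm3 (0.27) and Adh1 (0.36). With a distal colon covariate they turned for Gstm6 (0.16), Gstt1 (0.012), Gstt3 (0.076), Sult1d1 (-0.068), Acsm3 (0.21) and Adh1 (0.26). Gstt3 was at -0.086 to 0.020 leaving out 1 library and 0.060 with the smooth muscle covariate. Without normal diet libraries 1 to 3, Sult1a1 was at 0.033 and Sult2b1 at -0.084. The causes were not tested. The scale alternatives left the sign of every family median as it was. Same-numbered libraries were not more alike than others: they deviated with correlations of -0.15, -0.14, -0.13, 0.061 and -0.26, against -0.36 to 0.35 for differently numbered ones. With differences this large between libraries, the correlations cannot exclude a pairing. With a replicate block 0 genes were called. In that fit 8 members (23.5%) were higher at an unadjusted p under 0.05, against 7.07% of all tested genes. Genes near 1 FPKM, such as Ugt2b5 on the normal diet with 1 to 29 reads, carry large counting error.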
